A study of Mus musculus with 6 samples.

Results

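The insulin and insulin-like growth factor (IGF) genes described here are 10 of the 54087 genes counted in these libraries. They comprise the ligand Igf1, the receptors Igf1r and Insr, the adaptors Irs1 and Irs2, and the IGF-binding proteins Igfbp2, Igfbp3, Igfbp4, Igfbp5 and Igfbp6. Of these, 9 were chosen for their place in the pathway, and Igfbp6 was picked for its fall in KO/KO, so its values are given as a description with no test. All 10 passed the filter on low counts.

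RNA was counted in 6 libraries of male C57BL/6 germ cells at 10 days post partum (10dpp), sorted for bright and medium fluorescence of Id4-GFP, a reporter of the gene Id4, which in the testis is enriched in spermatogonial stem cells. The first group, 3 libraries, was Dnmt3A WT/WT, and the second, also 3, was Dnmt3A KO/KO, in which the gene of a de novo DNA methyltransferase is disrupted. Both groups share the strain, sex, age and sorting gate, and the labels do not say whether a Cre was used, whether the deletion is limited to germ cells, or whether animals were pooled. No label says that a replicate is its own animal. All p-values therefore refer to the spread among these 6 samples, which may be technical.

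Insulin and the IGFs act through related receptor tyrosine kinases encoded by Insr and Igf1r, whose activated kinase domains phosphorylate the adaptors IRS1 and IRS2 and so recruit PI3 kinase. IGF-binding proteins are secreted carriers that hold IGFs away from the receptor or deliver them to it, and IGFBP6 binds IGF2 in preference to IGF1. In the mouse testis, signalling through both receptors is known for its part in Sertoli cell proliferation, and IGF1 made by somatic cells of the interstitium acts on spermatogonia.

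Gene totals lay between 42681201 and 61749155 counts per library. Dnmt3a was at 215, 193 and 188 CPM (counts scaled to a common library size and composition) in the WT/WT libraries, against 90.2, 104 and 99.5 CPM in those of KO/KO (log2 fold change -1.02, edgeR adjusted p = 0.000222). Whole genes were counted, so these values do not show which exons the remaining KO/KO reads came from. KO/KO replicate 1 lay nearer to WT/WT than the other KO/KO libraries did: over all genes called, its median shift from the WT/WT mean was 77.2% of that of KO/KO replicates 2 and 3 on the log2 scale, although for Dnmt3a it was 118%. Of 12 germ cell markers listed for the sorted cells, undifferentiated spermatogonia, each was above 1 CPM in at least 1 library. Not all of them, Ddx4 and Dazl among these, are particular to that stage. They summed to 2343 to 2440 CPM in WT/WT, against 2325 to 2656 CPM in KO/KO. Single markers differed, with 4 higher (Id4, Gfra1, Ret and Nanos2) and 3 lower (Zbtb16, Sall4 and Uchl1), against 8.33% and 6.42% of all genes tested. In all KO/KO libraries 6 lay above and 4 below WT/WT, against 18.2% and 17.5% of all genes. Id4 itself was at 36.9, 38.0 and 38.4 CPM in WT/WT, against 86.7, 176 and 159 CPM in KO/KO. The overlap of the sums therefore does not show that the sorted cells were alike. Summed Sertoli markers lay at 421 to 638 and 456 to 652 CPM, with 1 of 10, Rhox5, higher. Those of peritubular myoid cells were at 5.83 to 19.3 and 8.31 to 11.9 CPM, of Leydig cells at 6.27 to 15.6 and 3.53 to 7.21 CPM, and of macrophages at 1.32 to 2.26 and 3.79 to 4.82 CPM, nearly all of it from Cd68, the 1 macrophage marker of 5 that was higher. Of 7 interstitial stroma markers 2 were lower, Col1a1 and Pdgfra, and Dcn, Col1a2 and Nr2f2 overlapped between the genotypes. Their sum was 78.7 to 109 against 38.6 to 56.1 CPM, but without Col1a1, its most abundant gene, it overlapped, at 24.3 to 37.1 against 19.6 to 26.5 CPM (a sum taken after the data were seen). Of 6 endothelial markers 4 were higher, Cdh5, Kdr, Vwf and Flt1, while Pecam1 (log2 fold change 0.16, edgeR adjusted p = 0.754) and Tek (-0.18, edgeR adjusted p = 0.635) were not called and overlapped. Their sum was 33.7 to 40.1 against 119 to 159 CPM, and 19.8 to 26.3 against 76.7 to 117 CPM without Flt1, its most abundant gene. No marker was at 0 counts in all libraries. The macrophage genes Adgre1, Csf1r, Ptprc and C1qa and the stromal genes Lum and Tcf21 stayed under 1 CPM throughout. So did the myoid genes Tagln and Cnn1 and the Leydig gene Insl3. The same lists also held markers above 1 CPM in every library. These were Cd68 of macrophages, Pdgfra, Col1a1, Col1a2 and Nr2f2 of stroma, Myh11 of myoid cells and Star of Leydig cells. The low genes therefore do not show that these cell types were absent.

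**Figure D1:**
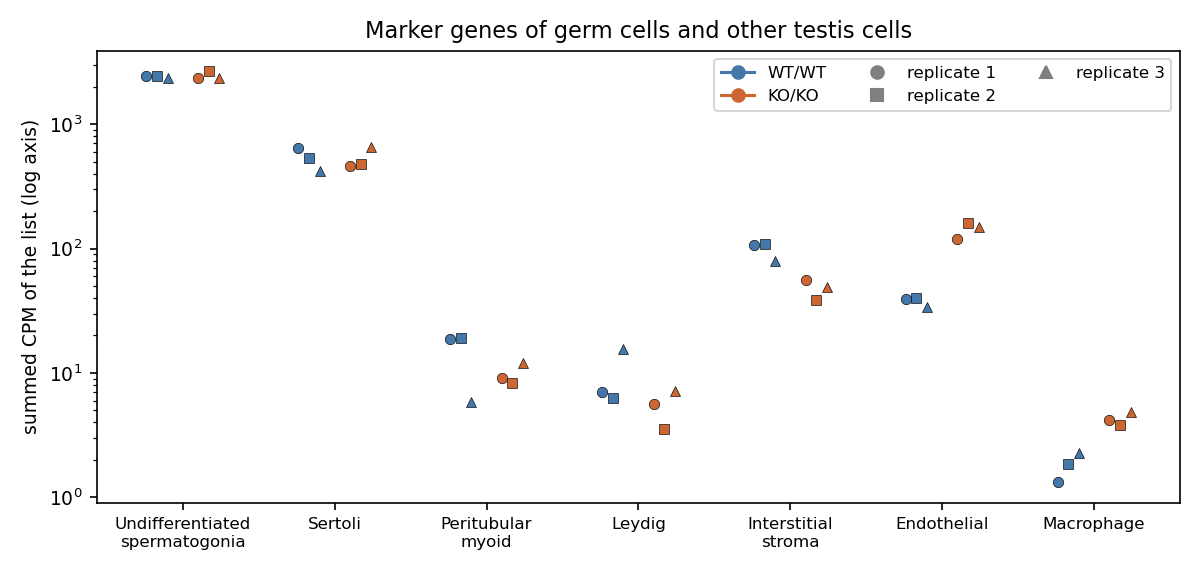
Summed CPM (log axis) of the marker lists of 7 cell types in each of the 6 libraries, WT/WT in blue and KO/KO in orange, with 1 symbol per replicate number. The endothelial sums do not overlap between the genotypes (33.7 to 40.1 against 119 to 159 CPM); nor do the stromal sums (78.7 to 109 against 38.6 to 56.1 CPM), which overlap without Col1a1, and the macrophage sums (1.32 to 2.26 against 3.79 to 4.82 CPM), which overlap without Cd68.

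Per length of exon, which allows levels to be compared between genes, Igf1r was the most abundant member in both genotypes. In WT/WT it stood at 24.2 ± 1.84 CPM per kb (SD, n = 3), followed by Igfbp2 at 15.2 ± 1.11, Igfbp6 at 9.14 ± 2.25 and Irs2 at 4.80 ± 0.265 CPM per kb, each step without overlap between the libraries. Igfbp3 (2.25 ± 0.215), Igfbp4 (1.97 ± 0.364), Igfbp5 (1.73 ± 0.421) and Insr (1.15 ± 0.236 CPM per kb) formed a run in which each gene's range overlapped that of the next. Irs1, at 0.624 ± 0.0736, and Igf1, at 0.268 ± 0.0911 CPM per kb, came last, each clear of the gene above it. In KO/KO the order changed below Igf1r (21.9 ± 1.77 CPM per kb). Irs2, at 7.88 ± 1.41, stood beside Igfbp2, at 7.04 ± 0.793 CPM per kb, with overlapping ranges, and Igfbp6, at 0.994 ± 0.259, had dropped to the range of Irs1, at 1.19 ± 0.291 CPM per kb, with only Igf1 below them.

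**Figure D2:**
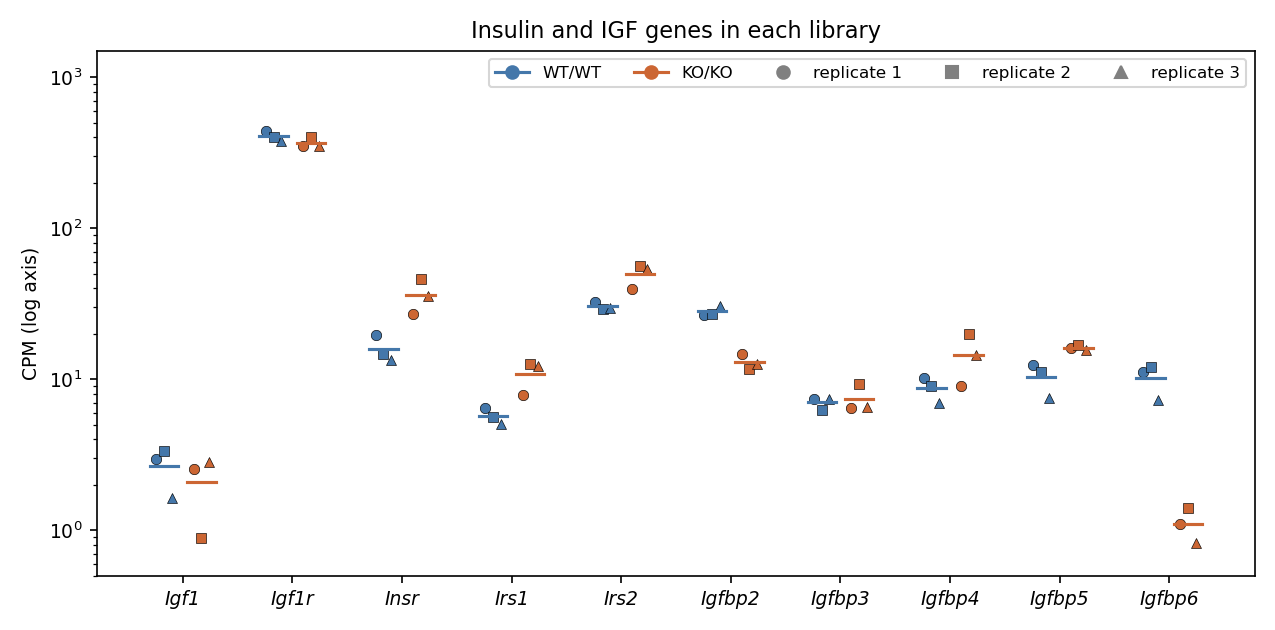
CPM (log axis) of the 10 genes in each library, WT/WT in blue and KO/KO in orange, with symbols for replicate numbers and a line at the mean of each genotype. The KO/KO points lie above all WT/WT points for Insr, Irs1, Irs2 and Igfbp5 and below them for Igfbp2 and Igfbp6; for the other 4 genes they overlap.

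Between the genotypes, the receptor Insr and both adaptors and the binding protein Igfbp5 rose in KO/KO, and Igfbp2 fell. Of the 9 members chosen by pathway, 4 were higher and 1 was lower in KO/KO (edgeR, adjusted p under 0.05 after Benjamini-Hochberg correction over all genes). Over all 21314 genes tested 8.33% were higher and 6.42% lower. The same 5 members did not overlap between the genotypes, 4 above and 1 below WT/WT, against 18.2% above, 17.5% below and 35.8% either way of all genes. The median log2 fold change of the 9 was 0.64 and that of all genes tested 0.0028. Because the set was proposed with results of these data known, nothing further is read from its count. Leaving out WT/WT replicate 2 or 3 left 2 members higher instead of 4, and over all genes the calls went from 1776 higher and 1368 lower to 1083 and 652 when WT/WT replicate 1 was left out, to 814 and 560 for replicate 2, and to 892 and 663 for replicate 3.

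**Figure D3:**
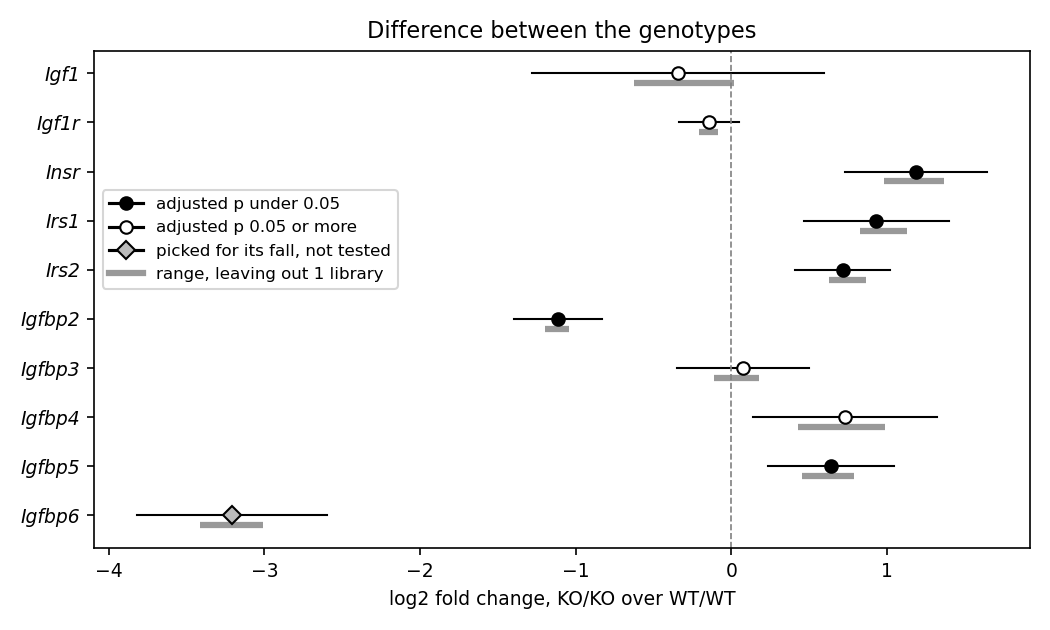
Log2 fold change, KO/KO over WT/WT, of each gene with its 95% interval from the edgeR fit (black lines, n = 3 per genotype) and the range over the 6 fits that each leave out 1 library (grey bars). Filled circles mark the 5 members past the threshold, open circles the 4 that are not, and the diamond Igfbp6, which was not tested; the widest interval is that of Igf1, from -1.28 to 0.60.

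The ligand gene Igf1 (chromosome 10, 87858265 to 87937042, GRCm38) was the least abundant member per length of exon in both genotypes. The WT/WT libraries held 130, 162 and 67 of its reads, equal to 2.97, 3.36 and 1.64 CPM, and the KO/KO libraries 114, 44 and 183, equal to 2.55, 0.892 and 2.84 CPM. The genotypes overlapped, with KO/KO replicate 2 lowest and WT/WT replicate 2 highest. Its log2 fold change was -0.34 (95% interval -1.28 to 0.60, edgeR adjusted p = 0.636), an interval too wide to exclude a 2-fold change downwards. In bulk libraries such as these, fewer cells of a type and less RNA per cell cannot be told apart.

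Of the receptor genes, only Insr was called. Igf1r (chromosome 7, 67952827 to 68233668), which encodes the IGF1 receptor, had values of 440, 401 and 379 CPM in the WT/WT libraries, against 349, 402 and 353 CPM in those of KO/KO. These overlapped, and the log2 fold change was -0.14 (SE 0.09, edgeR adjusted p = 0.311) with a 95% interval from -0.34 to 0.05. Insr (chromosome 8, 3122061 to 3279617), the insulin receptor gene, had values of 19.5, 14.7 and 13.4 CPM in the WT/WT libraries, against 27.0, 46.1 and 35.4 CPM in those of KO/KO. All KO/KO libraries lay above all WT/WT libraries, with KO/KO replicate 1 the nearest to them. Insr rose 2.28-fold (log2 fold change 1.19, SE 0.20, edgeR adjusted p = 0.00502), and by between 0.98 and 1.37 on the log2 scale when any 1 library was left out, with edgeR adjusted p up to 0.0339. Per length of exon, Igf1r RNA exceeded Insr RNA 18.4-, 22.4- and 23.1-fold in WT/WT, against 10.6-, 7.15- and 8.16-fold in KO/KO. That ratio did not overlap between the genotypes, whereas the ratio of Irs2 to Irs1 did, at 7.27, 7.48 and 8.45 against 7.32, 6.47 and 6.31. The counts do not separate the Insr isoforms with and without its alternative exon.

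Both adaptors rose. Irs2 (chromosome 8, 10984681 to 11008458), the adaptor that couples the insulin receptor to hepatic and beta cell responses, had values of 32.3, 29.1 and 29.7 CPM in the WT/WT libraries, against 39.6, 56.1 and 53.8 CPM in those of KO/KO. It rose 1.64-fold (log2 fold change 0.72, SE 0.14, edgeR adjusted p = 0.00774) and was called in each of the 6 fits that left out 1 library (edgeR adjusted p up to 0.0496). Irs1 (chromosome 1, 82233101 to 82291416), which carries the growth signal of both receptors in many tissues, had values of 6.41, 5.63 and 5.07 CPM in the WT/WT libraries, against 7.82, 12.5 and 12.3 CPM in those of KO/KO. It rose 1.91-fold (log2 fold change 0.93, SE 0.21, edgeR adjusted p = 0.0160). The call for Irs1 was lost without WT/WT replicate 2 (edgeR adjusted p = 0.0736) and without WT/WT replicate 3 (edgeR adjusted p = 0.0722). In both genes, KO/KO replicate 1 was the lowest KO/KO library and lay just above WT/WT. Its shift from the WT/WT mean was 40.8% of that of KO/KO replicates 2 and 3 for Irs1, 44.9% for Irs2 and 57.5% for Insr on the log2 scale, below the 77.2% that was the median of all called genes. Without KO/KO replicate 1 the log2 fold changes were 1.37 for Insr, 1.13 for Irs1 and 0.87 for Irs2. Exons of the predicted gene Gm9747 on the opposite strand cover 30.9% of the Irs1 exon bases. That gene had at most 4 counts in any library, and no source used here says whether the counting used strand.

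The binding proteins went in both directions. Igfbp2 (chromosome 1, 72824503 to 72852474), the most abundant of them per length, had values of 26.8, 27.1 and 30.5 CPM in the WT/WT libraries, against 14.6, 11.7 and 12.7 CPM in those of KO/KO. Every KO/KO library was below every WT/WT library. It fell to 0.462 of its WT/WT level (log2 fold change -1.11, SE 0.13, edgeR adjusted p = 0.000737), with log2 fold changes from -1.20 to -1.04 when any 1 library was left out. Igfbp5 (chromosome 1, 72857932 to 72874884), a carrier that also binds extracellular matrix, had values of 12.4, 11.1 and 7.55 CPM in the WT/WT libraries, against 16.1, 16.9 and 15.6 CPM in those of KO/KO. It rose 1.56-fold (log2 fold change 0.64, SE 0.18, edgeR adjusted p = 0.0415). This was the weakest of the 5 calls. It was lost without WT/WT replicate 2 (edgeR adjusted p = 0.112), WT/WT replicate 3 (0.108), KO/KO replicate 1 (0.0676), KO/KO replicate 2 (0.0667) or KO/KO replicate 3 (0.0552), while its log2 fold change stayed between 0.46 and 0.79.

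Igfbp2 and Igfbp5 are neighbours that face each other tail to tail, their 3′ ends 5457 bases apart, and they changed in opposite directions. Beyond Igfbp2, the next protein-coding gene is the ribosomal protein gene Rpl37a, whose level went from 80.0 ± 5.06 to 69.7 ± 11.5 CPM (SD over 3 libraries each, edgeR adjusted p = 0.315). Beyond Igfbp5, at a distance of 140 kb, the spermatid protein gene Tnp1 rose from 0.408 ± 0.113 to 1.81 ± 0.258 CPM (log2 fold change 2.14, SE 0.34, edgeR adjusted p = 0.00323).

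Igfbp4 (chromosome 11, 99041244 to 99054392), a soluble inhibitor of IGF action that the protease PAPP-A cleaves, had values of 10.2, 9.01 and 6.99 CPM in the WT/WT libraries, against 9.003, 20.004 and 14.4 CPM in those of KO/KO. KO/KO replicate 1 lay within the WT/WT range and the other KO/KO libraries above it. The log2 fold change was 0.73 (SE 0.27, edgeR adjusted p = 0.0968). Without KO/KO replicate 1 it was 0.99 and passed the test (edgeR adjusted p = 0.0154). Igfbp3 (chromosome 11, 7206086 to 7213923), the main carrier of IGFs in serum, had values of 7.42, 6.27 and 7.45 CPM in the WT/WT libraries, against 6.43, 9.26 and 6.56 CPM in those of KO/KO. These overlapped, with a log2 fold change of 0.07 (95% interval -0.35 to 0.50, edgeR adjusted p = 0.836).

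Igfbp6 (chromosome 15, 102144362 to 102149511, on the plus strand) was counted 491, 577 and 298 times in WT/WT, against 49, 69 and 53 times in KO/KO. Scaled to CPM, these are 11.2, 12.0 and 7.30 for WT/WT, against 1.09, 1.40 and 0.822 for KO/KO. The lowest WT/WT library, replicate 3, was still well above the highest KO/KO library, replicate 2. The log2 fold change was -3.21 (SE 0.27), a level 9.24-fold lower, and it ranged from -3.42 to -3.01 over the fits that left out 1 library. KO/KO replicate 1, intermediate for the adaptors, lay at 99.1% of the shift of the other KO/KO libraries for Igfbp6 and at 98.2% for Igfbp5. The 5 genes whose log2 CPM followed Igfbp6 most closely across the 6 libraries, of 11812 compared, were Ttc21a (Pearson r = 0.997), Ntn1 (0.996), Fam214a (0.995), Extl2 (0.994) and Ccdc113 (0.993). All 5 are lower in KO/KO, with log2 fold changes from -0.42 for Extl2 to -3.12 for Ccdc113. These are descriptions over 6 libraries that share the genotype difference. By Spearman rank, which has few possible values over 6 libraries, 301 genes reached the rho of 0.943 shared by 4 of these. Ttc21a was among 42 genes with a rho of 1.00. The protein-coding genes on either side of Igfbp6 are Soat2, 1014 bases downstream, and Spryd3, 8127 bases upstream. Spryd3 fell from 26.0 ± 2.96 to 16.3 ± 0.557 CPM (log2 fold change -0.67, SE 0.12, edgeR adjusted p = 0.00597). Soat2, a sterol acyltransferase gene, stood at 0.432 ± 0.240 and 0.226 ± 0.0601 CPM (log2 fold change -0.91, SE 0.55, edgeR adjusted p = 0.306).

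As DNMT3A methylates cytosines in CpG dinucleotides, the 250 bases before the RefSeq transcription start (GRCm38.p6) are shown for the 2 binding proteins that were lower in KO/KO, for Igfbp5, the neighbour that was higher, and for the adaptor Irs2, with each CpG in capitals. All are written 5′ to 3′ in the direction of the gene. Igfbp6 lies at chr15:102143936-102144185 (plus strand), Igfbp2 at chr1:72824230-72824479 (plus strand), Igfbp5 at chr1:72874866-72875115 (minus strand) and Irs2 at chr8:11008930-11009179 (minus strand).
Igfbp6: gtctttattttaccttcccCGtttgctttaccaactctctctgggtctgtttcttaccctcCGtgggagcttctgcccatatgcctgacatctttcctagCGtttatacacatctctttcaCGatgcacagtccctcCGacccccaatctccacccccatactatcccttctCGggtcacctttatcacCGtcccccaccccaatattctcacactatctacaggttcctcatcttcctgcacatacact
Igfbp2: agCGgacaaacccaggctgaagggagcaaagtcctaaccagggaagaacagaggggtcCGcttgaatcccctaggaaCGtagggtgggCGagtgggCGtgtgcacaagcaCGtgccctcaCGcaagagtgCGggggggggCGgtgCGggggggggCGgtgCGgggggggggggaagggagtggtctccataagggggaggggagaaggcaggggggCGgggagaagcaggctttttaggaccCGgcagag
Igfbp5: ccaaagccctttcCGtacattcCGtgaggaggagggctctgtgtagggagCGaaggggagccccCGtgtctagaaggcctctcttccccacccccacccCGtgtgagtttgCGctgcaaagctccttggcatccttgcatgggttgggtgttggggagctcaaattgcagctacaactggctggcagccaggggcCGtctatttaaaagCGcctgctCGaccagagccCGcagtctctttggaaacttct
Irs2: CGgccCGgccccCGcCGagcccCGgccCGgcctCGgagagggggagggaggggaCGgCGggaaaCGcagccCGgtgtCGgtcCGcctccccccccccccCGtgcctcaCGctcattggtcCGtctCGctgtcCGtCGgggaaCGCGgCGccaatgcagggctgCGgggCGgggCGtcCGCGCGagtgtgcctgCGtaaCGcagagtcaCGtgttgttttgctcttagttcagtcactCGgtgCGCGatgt
These windows hold 7 CpGs in Igfbp6, 14 in Igfbp2, 10 in Igfbp5 and 34 in Irs2. The median over 32851 such windows was 6, and 57.0% of windows held at most the 7 of Igfbp6, whereas 97.0% held at most the 34 of Irs2. Of the 10 members 9 were matched in the promoter table, in 10 windows, with Igf1 lowest at 5 and Igf1r highest at 42 CpGs. The genes with lower RNA in KO/KO had windows of 7 and 14 CpGs, with 11 in another Igfbp2 window, and the called genes with higher RNA and a matched window had 10 (Igfbp5), 28 (Irs1) and 34 (Irs2). Members not called had 5 (Igf1), 22 (Igfbp4), 32 (Igfbp3) and 42 (Igf1r). With so few genes, and Igfbp6 picked for its fall, no relation between CpGs and direction is read from these counts. Methylation was not measured in these files. The GC box GGGCGG, on either strand, was present in the windows of Igf1r, Irs1, Irs2 and Igfbp2 (32.7% of all windows). The letters TATAAA of the TATA box, on either strand, were in those of Igfbp4 and Igfbp6 (12.4%). In Igfbp6 the match is the reverse complement TTTATA, nearer to the far end of the window than to the start. Such a match of letters does not show a TATA box in use. The FOXO core TGTTTAC, on either strand, was in none of the 10 windows and in 3.17% of all windows. The RefSeq start of Igfbp6 lies 176 bases before the GENCODE gene start, that of Irs2 471 bases before it, and those of Igfbp2 and Igfbp5 (the window printed) within 23 bases of it, while the other Igfbp2 start is 884 bases from it. For the members with the lowest and highest CpG count, the RefSeq start lies 2846 bases inside the gene (Igf1) and 570 bases before it (Igf1r). Another choice of start would therefore shift these windows.

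Per length of exon, the 5 binding protein genes summed to 30.3 ± 1.76 CPM per kb in the WT/WT libraries, against 16.4 ± 1.33 CPM per kb in those of KO/KO (SD, n = 3 each). As Igfbp6 is part of the sum and was picked for its fall, the sum is a description. The make-up of the sum differed between the genotypes. Igfbp6 took 32.1%, 34.4% and 23.2% of it in WT/WT, against 6.28%, 7.02% and 4.75% in KO/KO. The shares of Igfbp3, Igfbp4 and Igfbp5 were larger in KO/KO, at 14.4% ± 1.87, 19.8% ± 6.23 and 16.5% ± 0.719 against 7.46% ± 1.01, 6.48% ± 0.873 and 5.65% ± 1.10. Of these only Igfbp5 was called by its own level, the log2 fold change of Igfbp3 being 0.07, and the sum they are shares of was smaller in KO/KO. Igfbp2 remained the largest part, at 50.5% ± 6.80 and 43.4% ± 7.54. Binding proteins are also made by stromal and endothelial cells of the testis, which the Id4-GFP gate is meant to leave out. Some of their markers differed between the genotypes, and others did not. Of the stromal list 2 of 7 were lower (sum 78.7 to 109 against 38.6 to 56.1 CPM, overlapping without Col1a1), and of the endothelial list 4 of 6 were higher (33.7 to 40.1 against 119 to 159 CPM), Pecam1 and Tek not among them. Sertoli markers had larger sums, which overlapped (421 to 638 against 456 to 652 CPM). Of 12 markers of the sorted germ cells themselves, 4 were higher and 3 lower. The part of any of these cells in the changes of Igfbp2, Igfbp5, Igfbp6, Insr, Irs1 and Irs2 was not tested.

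**Figure D4:**
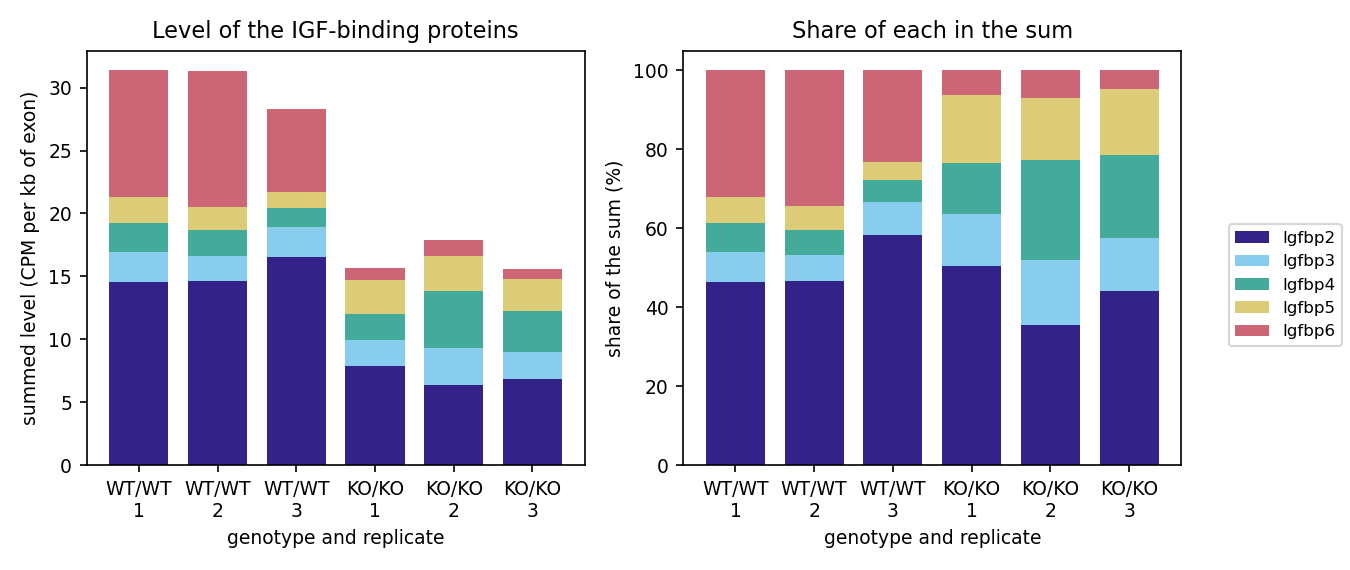
Stacked bars of the 5 IGF-binding protein genes in each library, on the left as CPM per kb of exon and on the right as a percentage of their sum. The bars are 28.3 to 31.4 CPM per kb tall in WT/WT and 15.6 to 17.9 in KO/KO, and the Igfbp6 share shrinks from 23.2% or more to 7.02% or less.

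Among 31 other genes of the insulin and IGF axis, 25 had enough counts to be tested, and 5 of these were higher and none lower in KO/KO (edgeR adjusted p under 0.05, against 8.33% and 6.42% of all genes tested). At an unadjusted p under 0.05 in edgeR there were 9 in either direction, against 29.5% of all genes, and DESeq2 called 1 lower, Sh2b2, against 7.99% of all genes. The median log2 fold change of the 25 was 0.02. The 5 were the ligand Igf2, the X-linked adaptor Irs4, the noncoding RNA H19, and Igf2bp1 and Igf2bp2, which encode proteins that bind Igf2 mRNA. Of the 25, 7 lay above WT/WT in all 3 KO/KO libraries, the 5 called among them, and 1 lay below, against 18.2% and 17.5% of all genes.

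Igf2 (chromosome 7, 142650766 to 142666816), the imprinted fetal ligand, had values of 7.49, 9.14 and 9.04 CPM in the WT/WT libraries, against 13.1, 12.3 and 14.9 CPM in those of KO/KO (a log2 fold change of 0.65 with an SE of 0.15, edgeR adjusted p = 0.0180). H19, the oppositely imprinted RNA of the same domain, had values of 49.2, 48.1 and 41.0 CPM in the WT/WT libraries, against 63.5, 66.8 and 98.0 CPM in those of KO/KO (a log2 fold change of 0.72 with an SE of 0.16, edgeR adjusted p = 0.0158). Both were therefore higher in every KO/KO library. Igf2 lost its call without WT/WT replicate 1 (edgeR adjusted p = 0.0812), replicate 2 (0.0648) or replicate 3 (0.0543), and H19 lost it without WT/WT replicate 2 (0.0604) or replicate 3 (0.0746). The gene Gm49394 shares 62.8% of the Igf2 exon bases on the same strand in the annotation used here. It has no row of its own in the files, and the overlap was not resolved. Reads of the antisense RNA Igf2os, which overlaps 1.71% of the Igf2 exon bases, numbered 98 to 109 in WT/WT libraries, against 178 to 328 in those of KO/KO. These are raw counts, not scaled for depth, and the 328 were in KO/KO replicate 3, the library with the highest gene total (61749155).

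Igf2bp2 had the largest ratio of change to error among the 5, with 23.6, 22.6 and 19.3 CPM in the WT/WT libraries against 42.9, 61.5 and 51.3 CPM in those of KO/KO (a log2 fold change of 1.25 with an SE of 0.14, edgeR adjusted p = 0.000821), and it was called in all 6 fits that left out 1 library. Igf2bp1, far more abundant, rose little, from 233 ± 5.31 to 284 ± 20.6 CPM (SD, n = 3 each, log2 fold change 0.29, SE 0.08, edgeR adjusted p = 0.0342). That call was lost with the replicate number as a block (edgeR adjusted p = 0.0732), with upper quartile factors (0.0514), without WT/WT replicate 1 (0.115), 2 (0.157) or 3 (0.0962) and without KO/KO replicate 2 (0.0552) or 3 (0.0559). Igf2bp3, the third of the family, stood at 37.0 ± 5.65 and 34.4 ± 1.80 CPM (edgeR adjusted p = 0.617); 18.7% of its exon bases lie under Malsu1 on the opposite strand. Irs4 had values of 4.06, 3.20 and 3.38 CPM in the WT/WT libraries, against 5.21, 20.7 and 7.27 CPM in those of KO/KO. Replicate 2 of KO/KO stood far above the others, and the log2 fold change of 1.64 (SE 0.44, edgeR adjusted p = 0.0354) was 0.82 without it. The call for Irs4 was lost without WT/WT replicate 1 (edgeR adjusted p = 0.0850), 2 (0.131) or 3 (0.116), and by limma-voom on all 6 libraries (log2 fold change 1.38, adjusted p = 0.0987).

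The remaining axis genes gave no call. Igf2r, the scavenger receptor that clears IGF2, stood at 190 ± 6.63 and 224 ± 14.4 CPM (SD, n = 3 each, log2 fold change 0.24, edgeR adjusted p = 0.0632), without overlap between the genotypes, and passed the test without KO/KO replicate 3 (edgeR adjusted p = 0.0459). The adaptor Sh2b1 (log2 fold change 0.17, edgeR adjusted p = 0.278) and the binding protein relative Igfbpl1 (0.61, edgeR adjusted p = 0.169) were not called either. Nor was the insulin-degrading enzyme gene Ide (0.02, edgeR adjusted p = 0.950). By CPM, not scaled for length, these were the most abundant tested genes of their roles. Among the 6 tested proteases and inhibitors, Pappa, the protease of IGFBP4, stood at 16.9 ± 2.80 and 12.0 ± 2.34 CPM (log2 fold change -0.49, edgeR adjusted p = 0.0958). It was called lower without KO/KO replicate 3 (-0.65, edgeR adjusted p = 0.0334), as was the imprinted adaptor Grb10 without KO/KO replicate 2 (-0.77, edgeR adjusted p = 0.0161). The 6 genes with too few counts to be tested were Ins1, Insrr, Irs3, Igfbp1, Igfals and Pappa2. The insulin gene Ins1 had 0 counts in all 6 libraries, and Ins2 had 4 to 33 in WT/WT, against 4 to 13 in KO/KO.

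**Figure D5:**
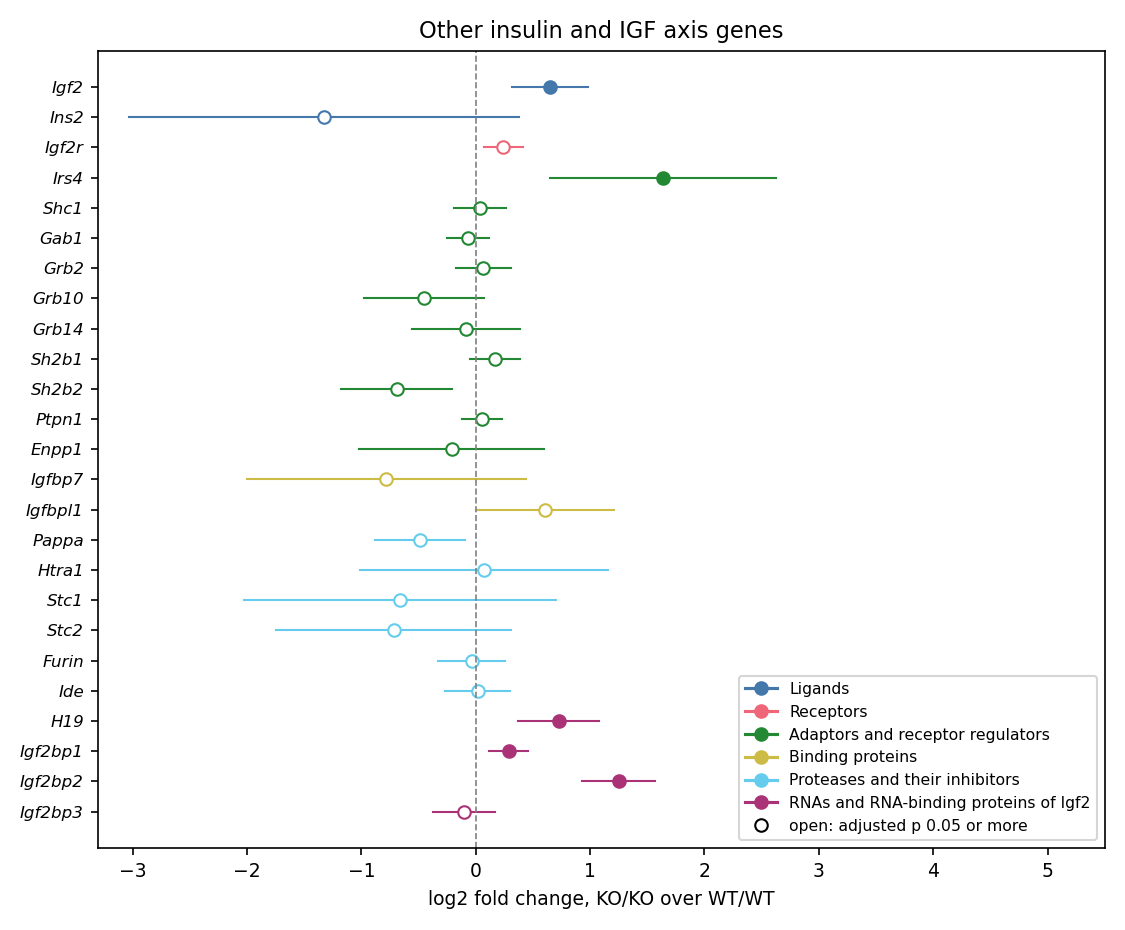
Log2 fold change, KO/KO over WT/WT, with 95% intervals from the edgeR fit (n = 3 per genotype) for the 25 other insulin and IGF axis genes tested, coloured by role. Filled points mark the 5 genes past the threshold, all to the right of 0; the intervals of Igf2r, Sh2b2, Igfbpl1 and Pappa also exclude 0, but these genes did not pass the adjusted test.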

How the data were processed

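The authors deposited 1 file of raw read counts per library, and per the submitters' processing notes the tools were STAR 2.7.0a and featureCounts 1.5.1, with mm10 as the build. RNA was extracted with a PicoPure kit and made into libraries with a stranded total RNA kit, per the labels' protocols. Which annotation release and strand setting were used is not given here, nor is the treatment of multimapping reads. Each file holds 54087 gene rows and 1205 transposable element rows. The latter took between 14.1% and 15.5% of the counts and were left out. The 3 WT/WT and 3 KO/KO libraries were compared over all genes by quasi-likelihood F tests with edgeR 4.0.16 under R 4.3.3 (TMM factors, filterByExpr, genotype as the only term, two-sided, Benjamini-Hochberg over the 21314 genes tested, threshold 0.05). SEs were taken as the log2 fold change divided by the root of F. CPM used gene totals and TMM factors.

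The members and lists were chosen with earlier results of these data known. Named are all members, Dnmt3a, axis genes past the threshold and, by CPM, the most abundant tested axis gene of each role. Also named are the 5 genes most like Igfbp6 by Pearson r on log2 CPM (prior count 2, average log2 CPM of at least 1, predicted and clone symbols left out). The nearest protein-coding genes on each side of Igfbp6 and of members called are named too. Further axis and marker genes named were chosen with their values in view. Coordinates and exon lengths (all exons of a gene merged) are those of GENCODE M21, whose GRCm38 assembly is mm10 under another name and which holds all 10 members, and promoter windows from RefSeq on GRCm38.p6. Alternatives were DESeq2 1.42.0, limma-voom (limma 3.58.1), a block for the replicate number, factors by RLE or upper quartile, a filter at 1 CPM in 3 libraries or none, leaving out each library, and the length of the longest transcript. Figures were drawn with matplotlib 3.10.9.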

Additional observations from a re-analysis of the deposited data

How the results depend on the processing

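The log2 fold changes of Igf1r, Insr, Irs1, Irs2, Igfbp2, Igfbp4, Igfbp5 and Igfbp6 kept their direction under all 13 alternatives. Of the members called, Insr, Irs2 and Igfbp2 also kept their call under all of them. Without 1 library, the members called higher numbered between 2 and 4, the axis genes called higher between 1 and 5 and called lower between 0 and 1, and all genes between 814 and 1985 higher and between 560 and 1380 lower; fewer samples entered these fits. Axis genes called lower were 2 with no filter and 1 by DESeq2. Without 1 library Igf1 ranged from -0.63 to 0.020, Igfbp3 from -0.11 to 0.18 and Ide from -0.068 to 0.17, with turned signs at 0.020 for Igf1 without KO/KO replicate 2, -0.0084 and -0.11 for Igfbp3 without WT/WT replicate 2 and KO/KO replicate 2, and -0.067, -0.055 and -0.068 for Ide without WT/WT replicates 2 and 3 and KO/KO replicate 2. Igfbp4 passed with no filter (edgeR adjusted p = 0.00108) and by DESeq2 (adjusted p = 0.0299). The cause was not tested. By the longest transcript, WT/WT levels were 35.6 for Igf1r, 21.5 for Igfbp2 and 1.70 CPM per kb for Insr.

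With the replicate number as a block, 1467 genes were higher and 1107 lower, 4 members were higher and 1 lower, and 4 axis genes were higher, the call of Igf2bp1 being lost. Deviations of same-numbered libraries correlated at -0.086, 0.038 and 0.019, so the numbers were not taken as pairs. Of the members, Igf1, with 44 to 183 counts per library, and Igfbp6 in KO/KO, with 49 to 69, had the fewest counts. The SE of the log2 fold change was 0.42 for Igf1 and 0.27 for Igfbp6. The part of counting depth in these errors was not tested.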

Other observations

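Around Irs1 and Irs2, the nearest protein-coding genes had the following values. Myo16, a myosin gene 350 kb from Irs2, rose from 1.15 ± 0.303 to 7.99 ± 3.95 CPM (SD, n = 3 each, log2 fold change 2.80, SE 0.38, edgeR adjusted p = 0.00165). On the other side of Irs2, at 190 kb, the basement membrane collagen gene Col4a1 rose from 38.3 ± 3.83 to 55.2 ± 9.62 CPM (log2 fold change 0.53, SE 0.14, edgeR adjusted p = 0.0306). Rhbdd1, 25035 bases from Irs1, stood at 7.20 ± 0.306 and 4.73 ± 0.922 CPM (log2 fold change -0.61, SE 0.19, edgeR adjusted p = 0.0604). Nyap2, on the other side of Irs1, had too few counts to be tested, at 0.0277 ± 0.0480 and 0.0409 ± 0.0355 CPM. The neighbour of Insr at higher coordinates, A430078G23Rik, was not among the counted genes under that symbol, so it has no values here.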
